A study of Brassica carinata with 12 samples.

Results

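This report describes 30 genes of synthetic Brassica carinata that were read in haploid anthers at meiosis. By counts they were at or near 0 in tetraploid anthers at meiosis, and they were abundant in both forms at the later mitosis stage. They were chosen by their level in CPM (a gene's count divided by the total count of its library, scaled to a total of 1000000). A member had more than 1 CPM in each haploid meiosis library, 0.2 CPM or less in each tetraploid meiosis library, and 5 CPM or more in each library of both mitosis groups. Genes of chromosome C03, unplaced genes and a stretch of B01 genes that rises at mitosis were left out beforehand, which kept 84038 of 97149 genes, and 30 of these met the rule. All 4 groups thus entered the choice, and the levels at meiosis and the rise to mitosis are given below as a description, with no test. The difference between the forms at mitosis was not set directly by the rule and was tested. It is not free of the choice, which may favour genes that are high in haploid mitosis.

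Brassica carinata is a mustard that joins the B genome of B. nigra with the C genome of B. oleracea. The haploid (genotype BC) came from B. oleracea var. alboglabra as the mother and B. nigra as the father and holds a single B and a single C set. The tetraploid (BBCC) is from the same cross, after ovule culture and treatment with colchicine, an agent that doubles chromosome number. Anthers of each form were labelled as young anthers at meiosis (sporogenesis) or as anthers at mitosis (gametogenesis), giving 4 groups of 3 RNA-seq libraries. The labels do not tell whether these 3 were separate plants, so the p-values below reflect the spread between libraries, and that spread may be technical.

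In a flowering plant's anther, meiosis turns each pollen mother cell into haploid microspores, which are fed and coated by the surrounding tapetum. Each microspore then divides by mitosis into a large vegetative cell and a small generative cell. Late pollen genes, many of them for cell wall remodelling and pollen tube growth, are typically transcribed after this division. In a haploid hybrid the chromosomes have no homologous partner to pair with at meiosis. The files do not pair the gene IDs with names, so the function of the 30 genes is not given here, and neither the tissue label nor the stage labels could be checked against marker genes.

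Total counts per library lay between 15769687 and 16793767, so 1 CPM corresponds to about 16 reads. The smallest count of a member in any haploid meiosis library was 19. Ratios, bounds and intervals of counts reflect counting error alone, because without molecular identifiers several reads may stem from 1 molecule. An anther is a mixture of cell types, and in such bulk samples fewer cells of a type and less RNA per cell cannot be told apart.

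At haploid meiosis the 30 genes together had 16092 reads over the 3 libraries, against 31 reads over the 3 tetraploid libraries. Their share of all counts was 0.0328% ± 0.00107 (SD, n = 3) in haploid meiosis and 6.25e-05% ± 1.97e-05 in tetraploid meiosis. It was 1.65% ± 0.132 in haploid mitosis and 0.958% ± 0.0255 in tetraploid mitosis. A large part of these shares came from the 2 members with the most reads at haploid mitosis, BcaC06g33026 and BcaC09g50098. Without them the share was 0.0187% ± 0.00126 in haploid and 5.44e-05% ± 2.06e-05 in tetraploid meiosis, and 0.846% ± 0.0101 in haploid and 0.525% ± 0.00242 in tetraploid mitosis. The haploid meiosis libraries were alike, at 0.0333%, 0.0335% and 0.0315%. The third of them was the lowest of its group for 15 of the 30 genes and the highest for 5. Late genes that were silent at meiosis in both forms are set beside these shares. There were 338 such genes, with 0.2 CPM or less in each of the 6 meiosis libraries and 5 CPM or more in each mitosis library. For them 320 reads were counted in haploid and 346 in tetraploid meiosis. The same ceiling in both forms keeps both numbers low, so they are no independent reference.

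**Figure D1:**
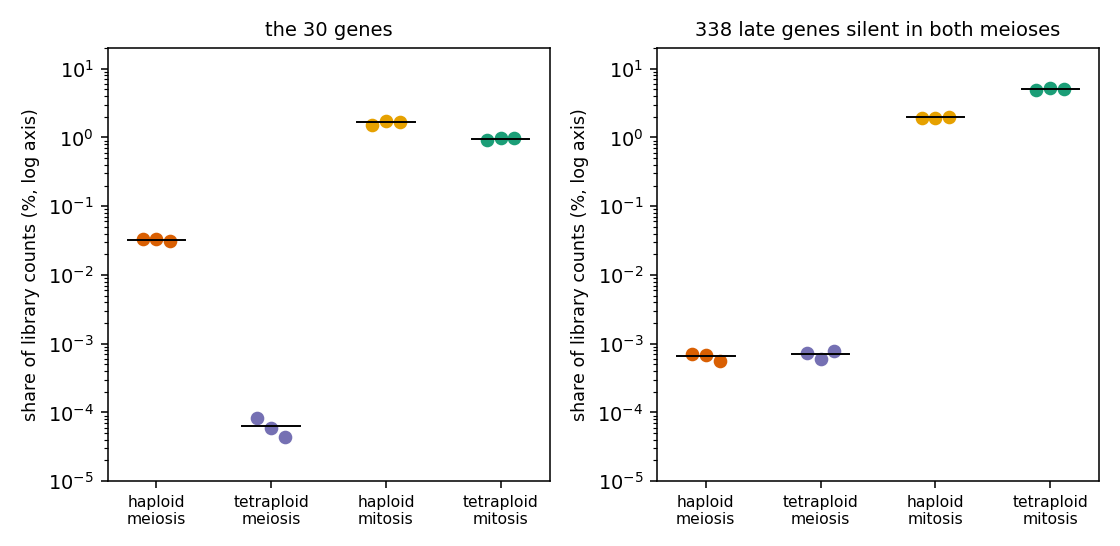
Share of all counts of a library, in percent on a log axis, taken by the 30 genes (left) and by 338 late genes silent in both meioses (right). Points are libraries and lines are means of 3. The left panel falls to 6.25e-05% in tetraploid meiosis, while the right panel shows nearly the same share in both meiosis groups, as the choice of each class sets.

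The mean level of a member in haploid meiosis ranged from 1.38 to 126 CPM, with a median of 3.54. The gene with the most reads there was BcaC06g33026 on C06, which had 121, 130.2 and 127 CPM in haploid meiosis libraries 1 to 3. The same gene had 0, 0.0595 and 0.0634 CPM in tetraploid meiosis, which rests on 2 reads. All haploid meiosis libraries were above all tetraploid ones, and the ratio of the means was 3075 (95% exact counting interval 860 to 25679). It was also the member with the most reads at mitosis, at 5534 ± 46.1 CPM (haploid) and 2647 ± 41.5 CPM (tetraploid).

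Next came BcaC08g43483 on C08, with 36.6, 31.3 and 27.0 CPM in haploid meiosis and 0 counts in each tetraploid meiosis library. Its level was at least 173-fold higher in the haploid, taking a floor of 3 counts per library for a count of 0. In all, 16 of the 30 genes had 0 counts in every tetraploid meiosis library, with lower bounds from 7.92-fold to 173-fold and a median bound of 19.3-fold. A further 12 had 1 to 3 reads summed over the group and 2 had more, up to 6 reads.

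**Figure D2:**
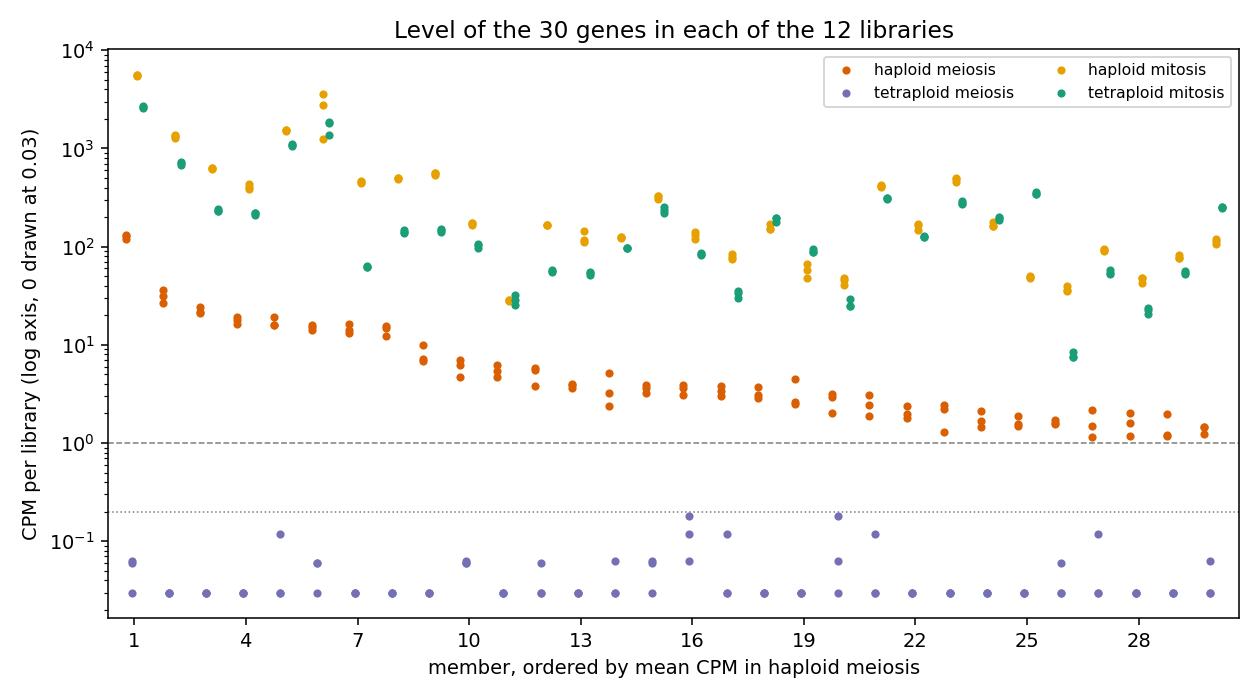
CPM of the 30 genes in each of the 12 libraries on a log axis, ordered by mean level in haploid meiosis, with values of 0 drawn at 0.03. The dashed line is the haploid meiosis floor of 1 CPM and the dotted line the tetraploid meiosis ceiling of 0.2 CPM. Haploid meiosis points lie between 1.16 CPM and 130.2 CPM, and both mitosis groups lie above the haploid meiosis points of the same gene.

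Members differed in how far they lay from the limits. The member nearest the haploid meiosis floor had 1.16 CPM in its lowest library, and the nearest gene that failed only there had 0.780. The highest tetraploid meiosis library of any member stood at 0.179 CPM, and the nearest gene outside that ceiling at 0.254. At mitosis the limits were less close. The lowest mitosis library of a member had 27.7 CPM among haploid and 7.50 CPM among tetraploid libraries. No gene failed the haploid mitosis floor alone, and 3 genes failed the tetraploid mitosis floor alone, the nearest with 2.15 CPM in its lowest library.

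Genes that were on at haploid meiosis and silent at tetraploid meiosis were few. There were 39 with more than 1 CPM in each haploid and 0.2 CPM or less in each tetraploid meiosis library, whatever their level at mitosis. The 30 late genes made up 76.9% of them, while 23.8% of all 84038 eligible genes had 5 CPM or more in each mitosis library. These shares are not like for like, since only 40.3% of eligible genes were above 1 CPM in each haploid meiosis library. Having 5 CPM or more in each mitosis library was common among such genes, and this limit asks for no rise from meiosis. Besides the members, 19133 genes passed the haploid meiosis and both mitosis limits and failed the tetraploid meiosis ceiling alone. Of the other 9 genes, 5 had lower means at mitosis in both forms than in haploid meiosis. With the forms exchanged the same limits gave 3 genes, which were on in tetraploid meiosis, silent in haploid meiosis and late in both forms. Those 3 genes had mean levels of 1.20, 2.15 and 2.36 CPM in tetraploid meiosis.

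The next description sets haploid meiosis beside haploid mitosis. In 24 of the 30 genes the haploid meiosis level was between 1% and 5% of the haploid mitosis level. The median over the genes was 2.77% (interquartile range 1.31% to 3.48%), and computed from haploid meiosis libraries 1 to 3 singly it was 2.85%, 2.69% and 2.33%. The floor of 1 CPM at haploid meiosis keeps out low percentages, most of all for genes low at mitosis. Over all 437 late genes at 0.2 CPM or less in each tetraploid meiosis library, the median was 0.00545%. Across the 30 genes, log2 means of haploid meiosis and haploid mitosis correlated with a Pearson's r of 0.80 and a Spearman's rho of 0.71. This is a description over genes that share libraries, and genes are not independent replicates.

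BcaC01g01248 on C01 stood highest on this measure, at 19.3% of its mitosis level. It had 6.23, 5.40 and 4.73 CPM in haploid meiosis and 28.5, 27.7 and 28.5 CPM in haploid mitosis, the smallest mean at mitosis of any member in that form. BcaB01g04270 on B01 followed at 6.02%, with 3.18, 2.04 and 2.92 CPM in haploid meiosis and 45.1 ± 3.71 CPM in haploid mitosis. The second library was the low one, and this gene also kept 4 reads in tetraploid meiosis.

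At the other end, BcaC01g00149 on C01 reached 0.410% of its mitosis level. It had 2.2, 2.46 and 1.31 CPM in haploid meiosis against 457, 493 and 506 CPM in haploid mitosis. The libraries at meiosis spread widely around their mean, at 1.99 ± 0.605 CPM.

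In counts BcaC09g50098 on C09 was next lowest, at 0.589%, close to BcaC05g25913 at 0.598%. In FPKM it stood at 1.62% and BcaC05g25913 at 0.586%, so this rank held in the count table only. Its haploid meiosis libraries were close, at 14.1, 15.8 and 15.1 CPM, but its haploid mitosis libraries stood at 1252, 3612 and 2764 CPM. No other member had libraries of haploid mitosis that differed by 1.5-fold or more, while 9 members did so in haploid meiosis. In the deposited FPKM (fragments per kilobase of gene, scaled to library size), the same haploid mitosis libraries were alike, at 98104, 96370 and 97303, and those of tetraploid mitosis lay between 66967 and 67486. By the deposited FPKM it ranked first of all genes in both mitosis groups. In CPM it stood below BcaC06g33026. The means were 2543 against 5534 CPM in haploid and 1684 against 2647 CPM in tetraploid mitosis. The FPKM of BcaC09g50098 in tetraploid meiosis was 24.9, 35.6 and 23.5, where the count table holds 1, 1 and 0 reads. It was 1580 ± 38.6 in haploid meiosis. The count and FPKM tables thus disagree for this gene, and its rank is uncertain.

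The other members behaved more alike in both tables. In FPKM, 27 of the 30 genes had 0.2 or less in each tetraploid meiosis library and 29 had more than 1 in each haploid meiosis library. In all 30 the lowest haploid meiosis FPKM was above the highest tetraploid one. By FPKM, 5 members were among the 100 most abundant genes of haploid mitosis and 17 among the 1000 most abundant. In haploid meiosis 2 were among the 1000 most abundant. Each of these rank counts includes BcaC09g50098.

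Members were more frequent among the genes most abundant in haploid mitosis, which the fixed floor of 1 CPM at haploid meiosis favours. A gene low at mitosis passes that floor only at a larger percent of its mitosis level. A high level in haploid mitosis did not always go with reads at haploid meiosis. The 30 genes are 6.86% of the 437 late genes that were silent in tetraploid meiosis. The remaining 407 were 338 genes silent in haploid meiosis too and 69 between the limits. Members were 0 of 198 genes at 5 to 16 CPM in haploid mitosis, 6 of 142 at 16 to 64 CPM, 12 of 67 at 64 to 256 CPM, and 12 of 30 above that. Of the 45 genes at or above the members' median of 164 CPM in haploid mitosis, 15 were members and 20 had 0.2 CPM or less in each haploid meiosis library. Those 20 reached at most 0.0720% of their mitosis level at haploid meiosis. The ceiling of 0.2 CPM and the level of 164 CPM that define them keep this percentage low beforehand, so it is no separate result. The most abundant of the 20 genes had a mean of 1677 CPM in haploid mitosis and 0 counts in all haploid meiosis libraries. Whether the haploid meiosis anthers included some of a later stage was not tested.

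**Figure D3:**
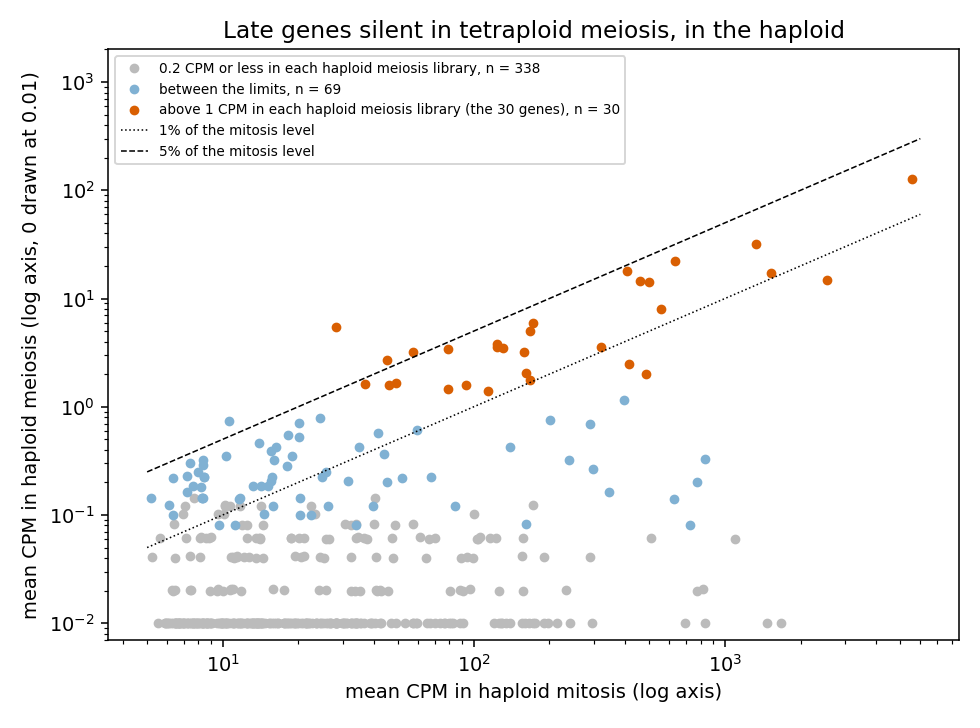
Mean CPM in haploid meiosis against mean CPM in haploid mitosis, both on log axes, for the 437 late genes silent in tetraploid meiosis, with values of 0 drawn at 0.01. Orange points are the 30 genes, and 24 of them lie between the lines at 1% and 5% of the mitosis level. Grey points, the 338 genes silent in haploid meiosis as well, extend along the bottom up to 1677 CPM at mitosis.

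At mitosis most of the 30 genes were higher in the haploid. All 30 passed the filter on low counts and were tested with edgeR's quasi-likelihood test, which called 24 higher in the haploid, 5 lower and 1 neither way (Benjamini-Hochberg adjusted p under 0.05 over 51860 genes). Over all genes tested, 47.7% were called, 23.3% higher and 24.4% lower. The median log2 fold change of the 30 genes was 0.80 (interquartile range 0.41 to 1.22), or 1.74-fold, against 0.02 over all genes tested. Changes of at least 2-fold were called in 10 members upward and 2 downward, against 7.70% and 12% of all genes. All haploid mitosis libraries were above all tetraploid ones in 23 members and below in 5, against 24.5% and 29.3% of all genes.

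**Figure D4:**
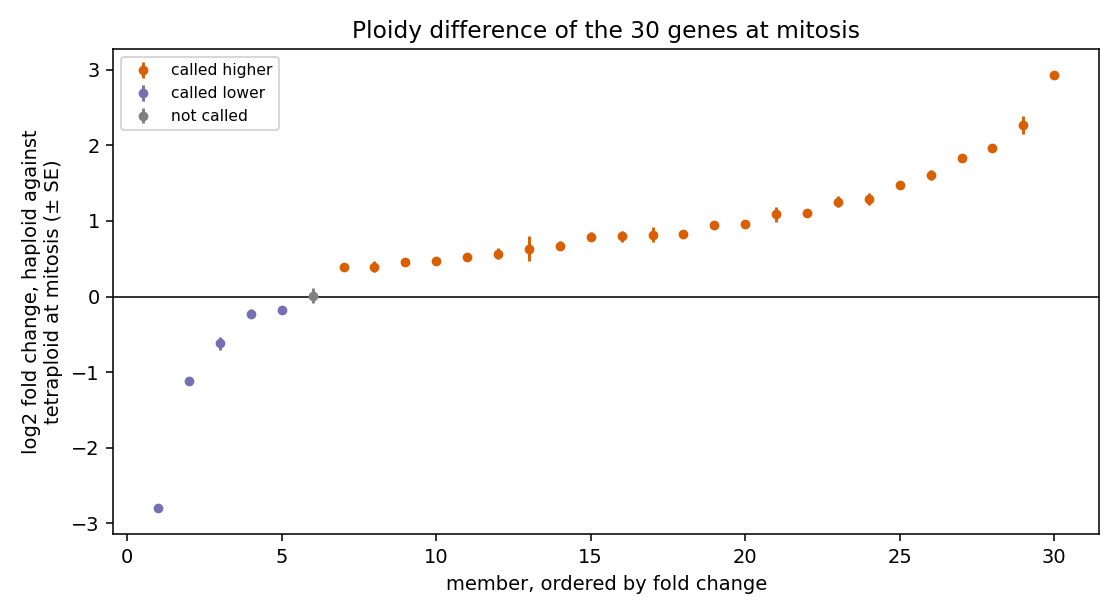
Log2 fold change of the 30 genes, haploid against tetraploid at mitosis, ordered by size, with standard errors from edgeR. Orange points were called higher in the haploid (24 genes), purple points lower (5 genes) and the grey point neither way, and the range is -2.80 to 2.92.

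The largest increase was in BcaB01g00503 on B01. It had 469, 449.8 and 459 CPM in haploid mitosis and 63.6, 61.5 and 61.5 CPM in tetraploid mitosis, so that the groups were far apart (log2 fold change 2.92, SE 0.05, edgeR adjusted p = 1.92e-29). At haploid meiosis this gene had 14.6 ± 1.60 CPM, against 0 counts in the tetraploid. BcaC05g27942 on C05 was second, with 35.0, 36.0 and 39.4 CPM in haploid mitosis against 7.50, 7.60 and 8.42 CPM (log2 fold change 2.27, SE 0.12, edgeR adjusted p = 1.51e-17). It was the member with the lowest level in tetraploid mitosis.

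BcaC06g33026, the gene with the most reads, was also called higher (log2 fold change 1.10, SE 0.03, edgeR adjusted p = 1.55e-24). So were BcaC08g43483 (0.96, SE 0.05), BcaC01g00149 (0.82, SE 0.05) and BcaB01g04270 (0.82, SE 0.10). The call of BcaC09g50098 (0.63, SE 0.16, edgeR adjusted p = 0.00176) rested on an unsteady gene whose mitosis libraries overlapped. Without haploid mitosis library 2 its log2 fold change was 0.28 (edgeR adjusted p = 0.117), and without haploid mitosis library 1 it was 0.97. DESeq2 gave a similar fold change but no call (0.60, adjusted p = 0.210). In FPKM the mitosis libraries of the forms did not overlap and limma made the call (0.53 on the log2(FPKM + 1) scale, adjusted p = 0.00129). Over 20 alternatives with edgeR, DESeq2 and limma its adjusted p ranged from 2.07e-70 to 0.210. The lowest came from edgeR with no filter on low counts alone. The next lowest was 7.31e-12, from edgeR without haploid mitosis library 1.

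The genes that were lower in the haploid at mitosis went against the majority. BcaC08g47389 on C08 had 49.9, 49.3 and 47.6 CPM in haploid mitosis and 347, 347 and 358 CPM in tetraploid mitosis (log2 fold change -2.80, SE 0.05, edgeR adjusted p = 4.67e-29). At meiosis the order was the opposite, with 1.89, 1.56 and 1.49 CPM in the haploid against 0 counts in every tetraploid library, as the rule requires. BcaB06g26298 on B06 had 107, 114 and 119.8 CPM in haploid mitosis against 253, 250.5 and 253 CPM (log2 fold change -1.11, SE 0.05, edgeR adjusted p = 4.88e-19). The remaining 3 genes called lower had log2 fold changes of -0.62, -0.23 and -0.18. BcaC01g01248, the gene with the highest meiosis level relative to mitosis, was the member called neither way (log2 fold change 0.01, SE 0.10, edgeR adjusted p = 0.928), with 28.5, 25.8 and 31.9 CPM in tetraploid mitosis around its 28.2 ± 0.478 CPM in the haploid.

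Most late genes that were silent in haploid meiosis lay on the other side at mitosis. Of the 338 genes silent in both meioses, 27 were called higher in haploid mitosis and 279 lower, with a median log2 fold change of -1.94. The 69 genes between the limits had 19 higher and 39 lower, with a median of -0.41. Among the 118 silent genes at or above the lowest member's level of 28.2 CPM in haploid mitosis, 13 were called higher and 96 lower (median -1.94). Among the 20 at or above 164 CPM, 3 were higher and 13 lower (median -0.70). The difference between these classes was not tested. Levels at haploid meiosis and haploid mitosis went together across the members. Choosing genes by the former may therefore also favour genes that are high in the latter. The part of this choice in the mitosis difference was not tested.

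**Figure D5:**
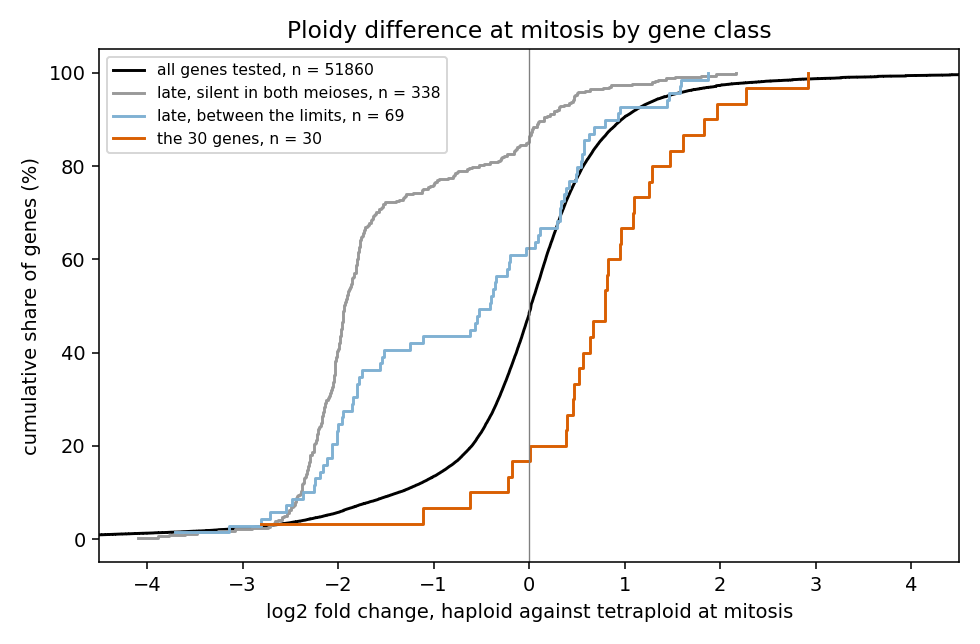
Cumulative share of genes, in percent, by log2 fold change of haploid against tetraploid at mitosis. The curve of the 30 genes (median 0.80) lies to the right of all 51860 genes tested (median 0.02), and the curve of the 338 late genes silent in both meioses (median -1.94) lies to the left.

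The 30 genes were spread over the genome. By their IDs they lay on 14 of the 16 chromosomes that could hold a member, with none on B02 and C02 and at most 4 on a chromosome (B01 and C05). There were 14 B and 16 C genes, or 46.7% B genes, against 48.1% of the 437 late genes silent in tetraploid meiosis and 44.5% of all eligible genes. Both subgenomes had members called in either direction at mitosis, with 12 of 14 B genes and 12 of 16 C genes higher and medians of 0.88 and 0.58.

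No members were neighbours in the order of the IDs, and the smallest gap between the numbers of members on a chromosome was 73. It lay between BcaC05g27942 and BcaC05g28015 on C05, and the next member on that chromosome was BcaC05g28113. None of the 60 genes directly before and after a member was above 1 CPM in each haploid meiosis library while at 0.2 CPM or less in each tetraploid one. Both neighbours of the member BcaC05g28113 on C05 came close, and they are singled out here after their values were seen. BcaC05g28112 had means of 12.7 CPM in haploid and 0.325 CPM in tetraploid meiosis, and 714 and 538 CPM in haploid and tetraploid mitosis. BcaC05g28114 had 4.87 and 0.164 CPM at meiosis and 184 and 274 CPM at mitosis. Both missed the tetraploid meiosis ceiling alone, with highest libraries of 0.417 and 0.254 CPM. Of the 60, 29 or 48.3% were above 1 CPM in each haploid meiosis library, against 40.3% of all eligible genes. At mitosis, 41 of these neighbours could be tested, and 12 of them came out higher in the haploid and 15 lower (edgeR), with a median log2 fold change of -0.09. The files give no coordinates, so the neighbours follow the order of the IDs alone. Near-identical copies on the B and C subgenomes may share reads, and the sources used here do not give how the authors' counting treated such reads.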

How the data were processed

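RNA was extracted with Trizol and libraries followed standard Illumina steps, per the labels' protocols, which speak of floral buds while the tissue label names anthers. Per the submitters' processing notes, featureCounts 2.0.1, HISAT2 2.1.0, TopHat2 and Bowtie2 2.2.3 were used, in roles that are not stated. The sources used here give no genome build, annotation, strand setting or treatment of multiply mapped reads. The deposited count table holds raw read counts per gene, as whole numbers, for 97149 genes. The FPKM table was deposited by the authors for the same genes, by a tool that the sources used here do not name.

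CPM were computed on column totals. The count test was edgeR 4.0.16 in R 4.3.3 (TMM factors, default filter on low counts, a mean per group over 12 libraries, two-sided quasi-likelihood test of haploid against tetraploid at mitosis), with Benjamini-Hochberg adjustment over 51860 genes holding 99.8% of counts. Standard errors were derived from each log2 fold change and its F statistic. The fit was first tested on simulated data. Alternatives used DESeq2 1.42.0 and limma 3.58.1, the latter on log2(FPKM + 1) and log2(FPKM + 0.1). The members and gene classes were chosen with earlier results of these data known. Named genes are the 2 highest and 2 lowest members at mitosis among called genes with non-overlapping libraries, the 2 with the highest haploid meiosis CPM, and the 2 highest and 2 lowest by meiosis level in percent of mitosis. Lists of anther marker genes were planned but not used, since the IDs carry no names. In the 3-library groups no outlier was tested, and shares of reads per library were not tested.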

Additional observations from a re-analysis of the deposited data

How the results depend on the processing

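With 24 members called higher and 5 lower at mitosis, the larger side was the same under every alternative run. The counts were 10 and 2 with a 2-fold minimum, and 20 and 3 with limma on log2(FPKM + 0.1). Other settings gave 22 to 24 higher and 5 lower, and leaving out each library in turn gave 23 to 24 and 5. The median log2 fold change, 0.80, moved by more than the spread between libraries to 0.76 with median-of-ratios size factors, 0.76 with DESeq2, 0.73 on log2(FPKM + 1) and 0.75 on log2(FPKM + 0.1), and was 0.76 to 0.80 without single libraries. Of the 30 genes, 22 kept direction and call in all 20 alternatives without a minimum fold. BcaC01g01248, not called in any, changed sign to -0.0255 with median-of-ratios factors, -0.0243 with DESeq2, -0.0389 on log2(FPKM + 1) and -0.0400 on log2(FPKM + 0.1), and ranged from -0.0566 to 0.0968 without single libraries. The number of members was 16 with a tetraploid meiosis ceiling of 0 counts and 54 with 0.5 CPM, and 30 to 39 without single libraries (39 without tetraploid meiosis replicate 1). FPKM at the same limits gave 34 genes, 26 of them shared. The median meiosis level in percent of mitosis was 2.40% with TMM-scaled CPM and 2.56% to 2.82% under the other settings. Same-numbered mitosis libraries did not deviate together from their group means over all genes tested (correlations of 0.0147, -0.0126 and -0.0142). This gave no sign of pairing by replicate number but cannot exclude it. A replicate block gave 24 higher and 5 lower with a median of 0.80. With the block, BcaC09g50098 moved from a log2 fold change of 0.63 to 0.53 (edgeR adjusted p = 2.29e-05). The causes of these changes were not tested. A member at the floor of 1 CPM rests on about 16 reads per library, and the tetraploid meiosis level of a member rests on at most 6 reads over its 3 libraries.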
